A study of Mus musculus with 7 samples.

Results

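MicroRNAs of the miR-7 family and miR-375 are the classical miRNAs of neuroendocrine cells. They were examined here in small RNA libraries of mouse hippocampus through 5 products, namely mmu-miR-7a, mmu-miR-7b, mmu-miR-375 and the star products mmu-miR-7a-1* and mmu-miR-7a-2*, which are the opposite arms of the miR-7a hairpins. The products were picked by their names, with no threshold on a measured value, out of 757 miRNA names in the deposited comparison tables, and all 5 had at least 10 reads on average and were among the 476 miRNAs tested. The star arm of miR-7b, mmu-miR-7b*, was added as a further product of the family.

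The 7 libraries came from pooled hippocampal tissue of adult C57BL/6 mice aged 3 to 5 months. By the labels there was 1 library of non-trained control mice (library 1), 1 of non-trained NIPP1* mice (library 2), 3 of trained control mice (libraries 3, 4 and 5) and 2 of trained NIPP1* mice (libraries 6 and 7). NIPP1* mice carry a tetO-driven, EGFP-tagged fragment of the nuclear inhibitor of protein phosphatase 1 (PP1) together with a reverse tetracycline transactivator under the CaMKIIalpha promoter, which is active in forebrain neurons, and the study used them with a doxycycline diet as a model of PP1 inhibition. The controls were littermates, labelled wildtype. The trained mice had performed an object recognition task, whereas the non-trained ones had only been placed in its chamber. Each non-trained group is thus a single pool, and the trained groups are pools whose tissue sources are not stated to be separate cohorts, so p-values measure the spread between these libraries only.

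The libraries held between 7285183 and 10017758 miRNA reads, and 1 read was worth between 0.0998 and 0.137 reads per 1000000 miRNA reads (RPM). The group means in the deposited tables matched the label groups for the non-trained libraries, but for the trained libraries they matched the opposite assignment. Over 319 miRNAs with at least 100 reads on average, the table mean named trained control differed from the mean of libraries 6 and 7 by 0.0189% (root mean square) and from that of libraries 3, 4 and 5 by 17.9%. For the table mean named trained NIPP1*, the difference was 0.0284% from libraries 3, 4 and 5 and 19.2% from libraries 6 and 7. Names had been joined through these means with the trained groups exchanged, and only close matches were kept. A small difference for that assignment is thus in part set by the join. Sequences left without a name were at 7.09 RPM at most. Small RNA reads do not show the transgene, so the data do not settle which assignment is right. Groups below follow the labels, and values of the products with the trained groups as in the deposited tables are given beside them.

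The miR-7 family is conserved from flies to mammals and is made in secretory cells of the pituitary, the pancreatic islets and the hypothalamus. In brain, the circular RNA Cdr1as holds many binding sites for miR-7, and miR-671 directs its cleavage. miR-375 is abundant in pancreatic islets, where it restrains insulin secretion, and is also found in the pituitary. A miRNA selects its targets mainly through its seed, bases 2 to 8 from the 5′ end.

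The mature sequences show why miR-7a and miR-7b are treated as a family, and how the opposite arms tell the hairpins apart. They are printed from RefSeq (table build GRCm38.p6), 5′ to 3′, with the seed in capitals. All 5 entries were found by the sequence at the deposited locus, which for miR-7b leaves out the last base.
mmu-miR-7a (miR-7a-5p): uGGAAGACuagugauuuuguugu
mmu-miR-7b (miR-7b-5p): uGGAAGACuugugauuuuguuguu
mmu-miR-7a-1* (miR-7a-1-3p): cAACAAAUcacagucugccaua
mmu-miR-7a-2* (miR-7a-2-3p): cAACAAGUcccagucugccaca
mmu-miR-7b* (miR-7b-3p): cAACAAGUcacagccagccuca

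The seed GGAAGAC was held by 2 of 1679 mature names in the RefSeq table (0.119%), and these were miR-7a-5p and miR-7b-5p. Counted from the 5′ end, miR-7b differed from miR-7a by the single substitution A10U over 23 compared bases, outside the seed, and its entry is 24 bases long against 23. The star arms were less alike. Compared with miR-7a-1*, miR-7a-2* carried A7G, A10C and U21C over 22 bases, of which A7G lies in the seed. The seed AACAAGU of miR-7a-2* was shared with miR-7b*, whereas AACAAAU of miR-7a-1* was held by 1 name of the table.

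On NCBI37/mm9, the build of the deposited files, mature miR-7a had 2 loci with the same sequence. One was at chr13:58494202-58494224 on the minus strand, in the hairpin Mir7-1 (chr13:58494140-58494247), which lies in an intron of all 6 annotated transcripts of Hnrnpk, the gene of an RNA-binding ribonucleoprotein. The other was at chr7:86033181-86033203 on the plus strand, in Mir7-2 (chr7:86033163-86033259), between Det1 and Aen, 41040 bp and 7480 bp away. The loci carried almost the same values in every library, differing by at most 0.144%, since reads of the mature miRNA cannot be assigned to either copy, and their mean was used. The opposite arms were distinct in sequence and came from 1 hairpin each, miR-7a-1* at chr13:58494161-58494182 and miR-7a-2* at chr7:86033221-86033242.

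Mature miR-7b was at chr17:56382440-56382462 on the plus strand, in Mir7b, between Dpp9 and Fem1a, 24098 bp and 13694 bp away. miR-375 was at chr1:74947235-74947256 on the minus strand, in Mir375, between Cryba2, a crystallin gene 7508 bp away, and Ccdc108, 1344 bp away. Both lie between genes in the annotation.

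miR-7a was the most abundant of the products. Its level was 9856 RPM in the non-trained control library and 6803 RPM in the non-trained NIPP1* library. In the trained control libraries 3, 4 and 5 it was 7748, 6924 and 5042 RPM (6572 ± 1387, mean ± SD, n = 3), and in the trained NIPP1* libraries 6 and 7 it was 7659 and 8496 RPM (8078 ± 592, n = 2). The non-trained control library stood highest and trained control library 5 lowest, 1.95-fold apart, and the trained groups overlapped. By mean level miR-7a ranked 27 of 756 sequences with a read, resting on 39423 to 87628 reads a library.

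miR-7b, which shares the seed, followed the same order at both ends. It was at 4281 RPM in the non-trained control library and 3099 RPM in the non-trained NIPP1* library. The trained control libraries 3, 4 and 5 had 3324, 3018 and 2427 RPM (2923 ± 456, n = 3), and the trained NIPP1* libraries 6 and 7 had 3157 and 3376 RPM (3266 ± 155, n = 2). Again library 1 was highest and library 5 lowest, 1.76-fold apart, with overlap between the trained groups. The sum of miR-7a and miR-7b took 0.747% (library 5) to 1.41% (library 1) of all miRNA reads, and miR-7a was between 67.5% and 71.6% of that sum.

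miR-375, the islet and pituitary miRNA, was much lower and varied least. It was at 62.65 RPM in the non-trained control library and 69.87 RPM in the non-trained NIPP1* library. The trained control libraries 3, 4 and 5 had 75.6, 74.11 and 62.93 RPM (70.88 ± 6.93, n = 3), and the trained NIPP1* libraries 6 and 7 had 61.36 and 58.9 RPM (60.13 ± 1.74, n = 2). The highest and the lowest library, 3 and 7, were 1.28-fold apart. Both trained NIPP1* libraries lay below all trained control libraries, and 26.5% of 476 miRNAs had no overlap there in either direction. Library 6 (447 reads) and library 5 (492 reads) were close, at 61.36 and 62.93 RPM. With 447 to 620 reads a library, miR-375 ranked 203, and the miR-7 seed pair had between 119 and 226 reads for each miR-375 read.

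The opposite arms were rare. In the non-trained libraries miR-7a-1* had 34.87 RPM (control) and 43.98 RPM (NIPP1*). It was at 43.05, 33.04 and 38.88 RPM in the trained control libraries 3, 4 and 5 (38.32 ± 5.03, n = 3), and at 49.83 and 54.9 RPM in the trained NIPP1* libraries 6 and 7 (52.36 ± 3.59, n = 2). The 3 NIPP1* libraries were the highest 3 of the 7, and 4.2% of 476 miRNAs had no overlap between genotypes in either direction. Library 2 (43.98 RPM, 355 reads) was close to control library 3 (43.05 RPM, 353 reads).

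In the same libraries miR-7a-2* had 8.66 and 8.55 RPM. It was at 9.51, 12.69 and 8.57 RPM in the trained control libraries (10.26 ± 2.16, n = 3) and at 6.73 and 10.78 RPM in the trained NIPP1* libraries (8.755 ± 2.86, n = 2), so that the groups overlapped. miR-7b*, between 4 and 11 reads in every library (0.45 to 1.32 RPM), was below the mean of 10 reads required for a test and was not tested.

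**Figure D1:**
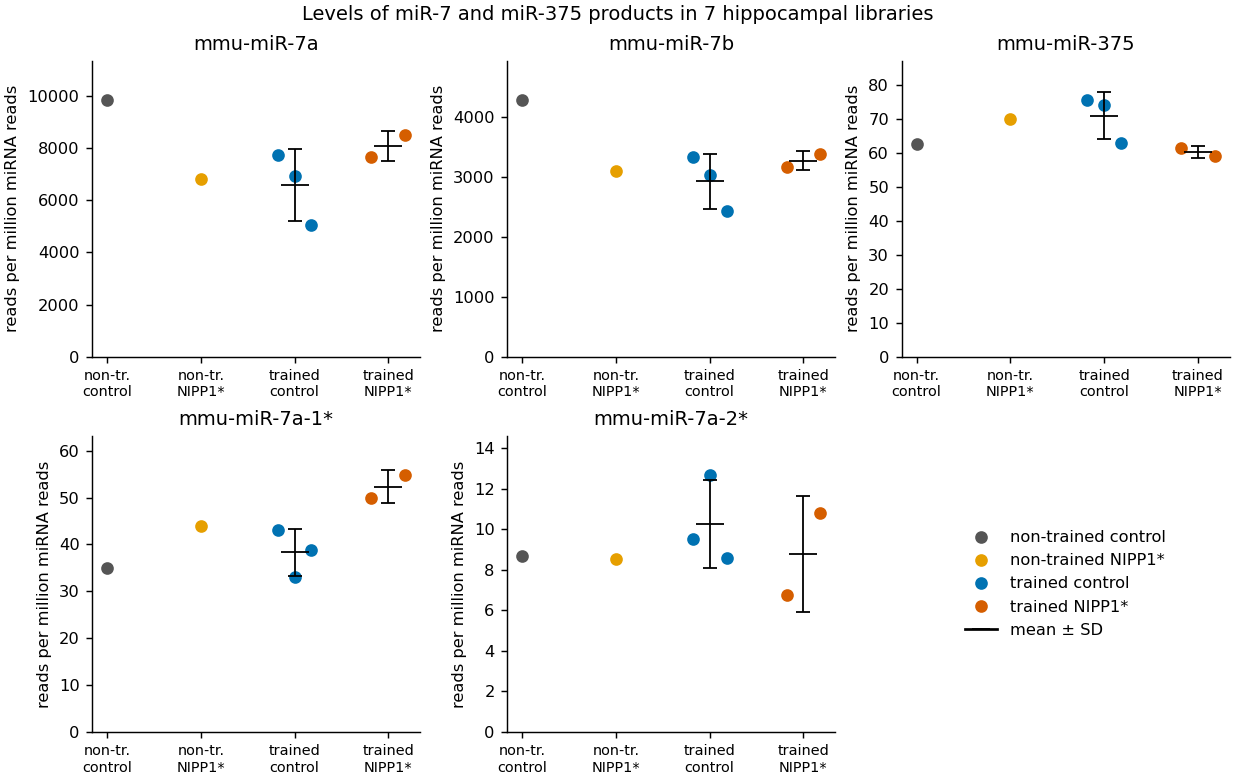
Level of each product in RPM (y axis from 0) in the 4 groups, with 1 point per library and, for groups of more than 1 library, the mean and SD as bars. miR-7a and miR-7b were highest in the non-trained control library (9856 and 4281 RPM) and lowest in one trained control library (5042 and 2427 RPM), miR-375 stayed between 58.9 and 75.6 RPM, and miR-7a-1* was highest in the trained NIPP1* libraries.

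The spread of the products was set beside that of 319 tested miRNAs with at least 100 reads on average, whose median SD over the 7 libraries was 0.19 on the log2 scale. The SD was 0.30 for miR-7a and 0.24 for miR-7b, larger than that of 82.1% and 70.2% of these miRNAs. For miR-375 it was 0.14, larger than that of 23.5%. The SD was 0.26 for miR-7a-1* and 0.27 for miR-7a-2*, the latter on 554 reads in all. Libraries of the same group differed by 0.15 to 0.62 on the log2 scale in miR-7a and by 0.03 to 0.26 in miR-375 over 4 pairs.

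The comparison of non-trained NIPP1* with non-trained control mice addresses PP1 inhibition without training. It rests on 1 library a group and has no replicate check, so it compares these libraries, with exact binomial intervals that cover counting error only. miR-7a was lower in the NIPP1* library by a log2 ratio of -0.53 (95% interval -0.55 to -0.52), which is 0.69 of the control level, and miR-7b by -0.47 (-0.49 to -0.44). miR-375 was at 0.16 (-0.01 to 0.33), and its interval included no difference. miR-7a-1* was higher, at 0.34 (0.11 to 0.56), while miR-7a-2* was at -0.02 (-0.51 to 0.47).

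Among 322 miRNAs with at least 100 reads on average in these libraries, 13 (4.04%) were lower by a log2 ratio of at least 0.5 and 7 (2.17%) were higher by as much, and 3 (0.932%), miR-34a, miR-182 and miR-183, passed a log2 ratio of 1 in either direction. These 3 are named after their values were seen. The median of all was 0.02. miR-7a was among the 13, ranking 10 from the lowest, and miR-7b fell just outside, ranking 15. For scale, the same size of difference in either direction was passed by between 6.13% and 21.9% of miRNAs in the 4 pairs of libraries of the same trained group.

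**Figure D2:**
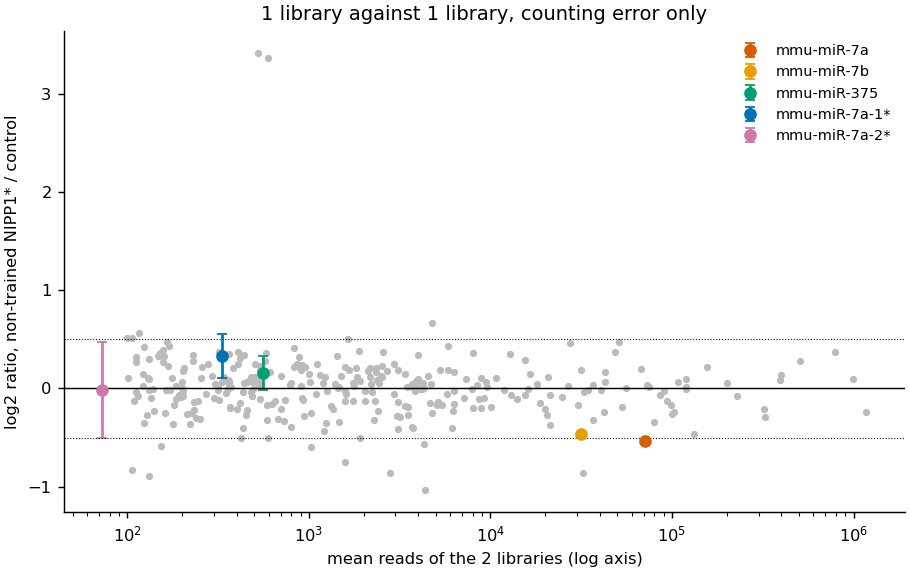
Log2 ratio of the non-trained NIPP1* to the non-trained control library (y axis) against the mean reads of both (x axis, log scale) for 322 miRNAs (grey) and the 5 products (coloured, with 95% counting intervals), with dotted lines at a log2 ratio of 0.5 in each direction. miR-7a (-0.53) and miR-7b (-0.47) lie near the lower dotted line, and miR-375 and both star products lie between the lines.

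The effect of training was tested within each genotype with limma on log2(RPM + 0.5), a scale that understates changes of low miRNAs, with Benjamini-Hochberg adjustment over all 476 miRNAs. In control mice, miR-7a was lower in the trained libraries by -0.61 (SE 0.23, 95% interval -1.16 to -0.06), or 0.656 of the non-trained level. miR-7b was lower by -0.56 (SE 0.19, -1.02 to -0.11). Neither passed the test, with limma adjusted p of 0.666 for both and unadjusted p of 0.0353 and 0.0219.

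miR-375 was at 0.17 (SE 0.20), miR-7a-1* at 0.13 (SE 0.22) and miR-7a-2* at 0.21 (SE 0.34), also without passing. Leaving out 1 library at a time moved miR-7a-1* between 0.04 (without library 3) and 0.23 (without library 4) and miR-7a-2* between 0.06 (without library 4) and 0.33 (without library 5). Of all 476 miRNAs, 0 (0%) passed in this comparison and 28 (5.88%) had an unadjusted p under 0.05. DESeq2 called 1, miR-129-2-3p, and edgeR 0 on the recovered reads. With the trained groups as in the deposited tables, miR-7a was at -0.29, miR-7b at -0.39, miR-375 at -0.06, miR-7a-1* at 0.58 and miR-7a-2* at -0.02, so that miR-7a-1* was over 4 times as far from 0 as by the labels. miR-7a and miR-7b stayed below the single non-trained control library, on which either value rests.

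In NIPP1* mice, trained libraries differed from the non-trained one by 0.25 (SE 0.25) in miR-7a, 0.08 (SE 0.20) in miR-7b, -0.21 (SE 0.21) in miR-375, 0.25 (SE 0.24) in miR-7a-1* and -0.003 (SE 0.36) in miR-7a-2*. miR-7b was at 0.03 without library 7 and at 0.12 without library 6. All 5 intervals included 0, and limma's adjusted p was at least 0.973. Here too 0 of 476 miRNAs (0%) passed, with 21 (4.41%) at an unadjusted p under 0.05, and DESeq2 called 2, miR-146a and miR-136, and edgeR 0. With the groups of the deposited tables, miR-7a was at -0.07, miR-7b at -0.10, miR-375 at 0.02, miR-7a-1* at -0.20 and miR-7a-2* at 0.23, so that all 5 had the other sign.

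The training effect had opposite signs in the genotypes for miR-7a, miR-7b and miR-375 when grouped by the labels. The difference of the training effect, NIPP1* minus control, was 0.85 (SE 0.34) for miR-7a, with a limma adjusted p of 0.579 and an unadjusted p of 0.0406, and 0.64 (SE 0.28) for miR-7b, with an adjusted p of 0.67. It was -0.39 (SE 0.29) for miR-375, with an adjusted p of 0.801. The star products were at 0.12 (SE 0.33) for miR-7a-1* and -0.22 (SE 0.50) for miR-7a-2*. Leaving out 1 library moved miR-7a-1* between 0.02 (without library 4) and 0.21 (without library 3), and miR-7a-2* turned to 0.11 without library 6. None of the 476 miRNAs passed (0%), 37 (7.77%) had an unadjusted p under 0.05, and DESeq2 called 2, miR-136 and miR-344d-3*, and edgeR 0.

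Such opposite movement of every library was seen in 104 of 476 miRNAs (21.8%) by the labels and in 43 with the groups of the deposited tables. In the latter grouping, the difference was 0.22 for miR-7a, 0.29 for miR-7b, 0.08 for miR-375, -0.78 for miR-7a-1* and 0.25 for miR-7a-2*.

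Trained NIPP1* and trained control mice were compared to ask about PP1 inhibition after training, on 2 and 3 libraries. miR-7a was at 0.32 (SE 0.18, 95% interval -0.12 to 0.76) and miR-7b at 0.17 (SE 0.15, -0.19 to 0.53). Without trained control library 5, in which both were lowest, they were at 0.14 and 0.04. miR-375 was at -0.23 (SE 0.16, -0.61 to 0.14), with both NIPP1* libraries below all control libraries. miR-7a-1* was at 0.45 (SE 0.18, 0.03 to 0.87), with both NIPP1* libraries above all control libraries, an unadjusted p of 0.038 and a limma adjusted p of 0.639. miR-7a-2* was at -0.23 (SE 0.27).

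Groups that do not overlap were seen in 126 of 476 miRNAs (26.5%). In all, 0 miRNAs (0%) passed limma, 34 (7.14%) had an unadjusted p under 0.05, and DESeq2 called 1, miR-344d-3*, and edgeR 0. Here and above, miRNAs called by DESeq2 are named after their values were seen. Since only the names of the trained groups change, the groups of the deposited tables give the same sizes with the other sign. These are -0.32 for miR-7a, -0.17 for miR-7b, 0.23 for miR-375, -0.45 for miR-7a-1* and 0.23 for miR-7a-2*.

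**Figure D3:**
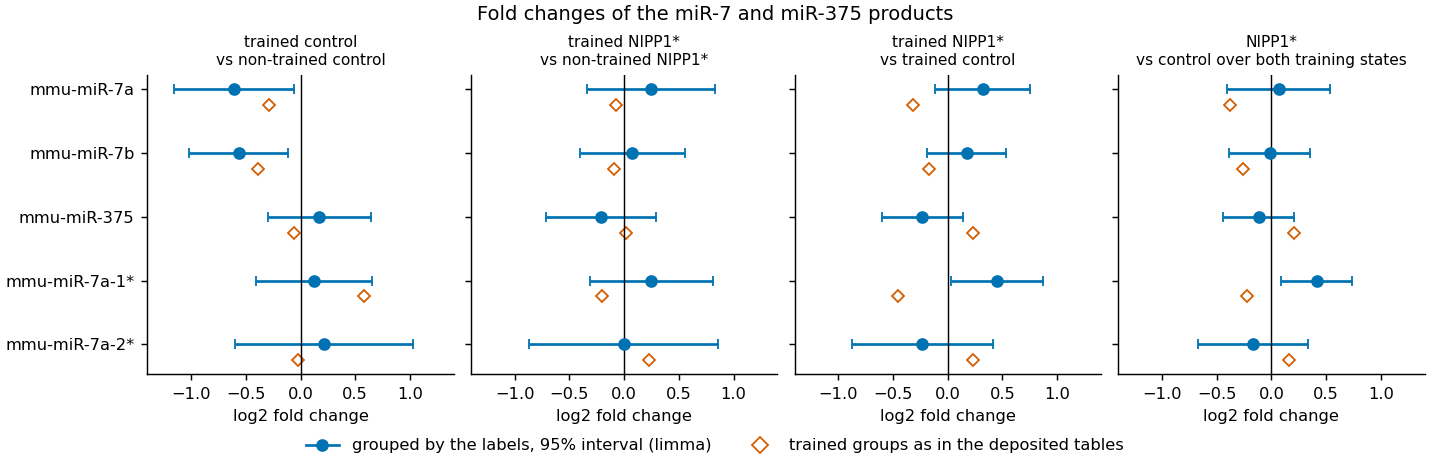
Log2 fold change (x axis) of each product in 4 comparisons, with the limma value and 95% interval by the labels (filled circles) and the value with the trained groups as in the deposited tables (open diamonds). The intervals of miR-7a and miR-7b lie below 0 in trained against non-trained control mice, those of miR-7a-1* lie above 0 in both genotype comparisons, and most diamonds lie on the other side of 0. No product passed adjustment over 476 miRNAs.

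Over both genotypes, with genotype as a term, trained libraries differed from non-trained ones by -0.21 (SE 0.22) in miR-7a, -0.26 (SE 0.18) in miR-7b, -0.01 (SE 0.15) in miR-375, 0.18 (SE 0.15) in miR-7a-1* and 0.11 (SE 0.24) in miR-7a-2*. Of 476 miRNAs, 0 (0%) passed limma, 18 (3.78%) had an unadjusted p under 0.05, and DESeq2 and edgeR called 0. The groups of the deposited tables put the products at -0.18, -0.24, -0.02, 0.16 and 0.11 in the same order. Without library 5, miR-7a was at -0.09 and miR-7b at -0.18.

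Over both training states, with training as a term, NIPP1* libraries differed from control libraries by 0.42 (SE 0.14, 95% interval 0.09 to 0.74) in miR-7a-1*, or 1.33-fold. All 3 NIPP1* libraries lay above all 4 control libraries, which was so in either direction for 20 of 476 miRNAs (4.2%). The gap was narrow, at 43.98 RPM in library 2 against 43.05 RPM in library 3. The unadjusted limma p of miR-7a-1* was 0.0185, where 10 of all miRNAs (2.1%) had one under 0.05, and its limma adjusted p was 0.987. The mature miR-7a from the same hairpin and its copy was at 0.07 (SE 0.20), miR-7b at -0.02 (SE 0.16), miR-375 at -0.12 (SE 0.14) and miR-7a-2* at -0.17 (SE 0.22). These small values rested on single libraries, as miR-7a turned to -0.09 without library 5 and to -0.07 without library 7, miR-7b to 0.03 without library 3 and miR-7a-2* to 0.05 without library 6, and miR-375 was at -0.06 without library 7.

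In this comparison 0 of 476 (0%) passed limma, and DESeq2 and edgeR called 0. With the groups of the deposited tables, miR-7a-1* was at -0.22 and miR-7a at -0.38, with limma adjusted p of 0.677 and 0.358, while miR-7b was at -0.26, miR-375 at 0.21 and miR-7a-2* at 0.16. limma then called 3 miRNAs, miR-136, miR-219-5p and miR-344d-3*, named after their values were seen, and none of the products.

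Ratios between products within a library do not depend on its scaling. miR-7a had 2.3 reads for each miR-7b read in library 1, 2.2 in library 2, 2.33, 2.29 and 2.08 in libraries 3, 4 and 5, and 2.43 and 2.52 in libraries 6 and 7. This ratio was the steadiest, 1.21-fold from the lowest to the highest library. The log2 levels of miR-7a and miR-7b correlated across the 7 libraries with a Pearson's r of 0.97 and a Spearman's rho of 0.96, given as a description, since these libraries share groups and each library its depth, and since the sequences differ at 1 base.

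The other products were less like miR-7a in their pattern. Pearson's r with miR-7a was -0.17 for miR-375, 0.14 for miR-7a-1* and 0.03 for miR-7a-2* over the same 7 libraries. For each 1000 reads of miR-7a, miR-375 had 6.36 reads in library 1, 10.3 in library 2, 9.76, 10.7 and 12.5 in libraries 3, 4 and 5, and 8.01 and 6.93 in libraries 6 and 7. Library 1 was thus lowest and library 5 highest.

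The opposite arms were below 1% of miR-7a in every library. miR-7a-1* had 3.54 reads for each 1000 of miR-7a in library 1 and 6.46 in library 2, then 5.56, 4.77 and 7.71 in the trained control libraries and 6.51 and 6.46 in the trained NIPP1* libraries. The 3 NIPP1* libraries lay close together, between 6.46 and 6.51, within the wider range of the control libraries. miR-7a-2* had between 0.879 and 1.83, the lowest in libraries 1 and 6 and the highest in library 4. The intronic hairpin in Hnrnpk gave 2.6 to 7.4 times as many star reads as Mir7-2.

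No ratio passed a test between groups. In 8 exact two-sided permutation tests, 4 ratios for 5 trained against 2 non-trained and for 3 NIPP1* against 4 control libraries, the differences of mean log2 ratio ran from -0.28 (miR-7a-2* to miR-7a, NIPP1* against control) to 0.36 (miR-7a-1* to miR-7a, trained against non-trained). The raw exact p ran from 0.343 to 0.667, and the adjusted p from 0.653 to 0.667. The smallest exact p that these designs allow is 0.0952 and 0.0571, so no ratio could pass 0.05. Without library 6 the difference for miR-7a-2* to miR-7a, NIPP1* against control, was -0.10, and without library 4 it was -0.13. For miR-375 to miR-7a in the same comparison it was -0.20, and -0.07 without library 5 or library 7. With the groups of the deposited tables, the ratio of miR-375 to miR-7a was higher in NIPP1* libraries by 0.61 on the log2 scale, with the smallest exact p possible, 0.0571, where the labels give -0.20.

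**Figure D4:**
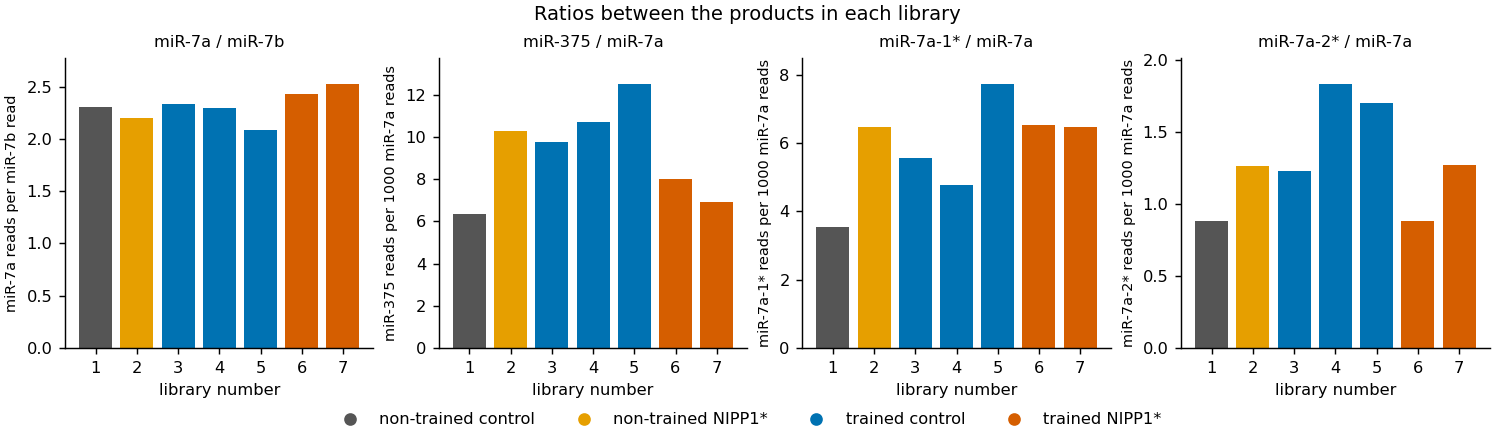
Ratios between products in each of the 7 libraries (bars from 0, coloured by group), as miR-7a reads per miR-7b read and as reads of miR-375, miR-7a-1* and miR-7a-2* per 1000 miR-7a reads. The miR-7a to miR-7b ratio stays between 2.08 and 2.52, while miR-375 and the star arms range 1.97- to 2.18-fold against miR-7a, with library 1 lowest for miR-375 and miR-7a-1*.

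For miR-7a, miR-7b and miR-375, the 3 miRNAs of most similar pattern over the 7 libraries were taken by Pearson's r of the log2 level, as a description, from 463 candidates that leave out the miR-7 and miR-375 products themselves. For miR-7a these were mmu-miR-544-5p (r = 0.967, 16.76 to 27.22 RPM), mmu-miR-384-5p (r = 0.962, 311.1 to 423.4 RPM) and mmu-miR-495 (r = 0.949, 19.06 to 29.24 RPM). For miR-7b they were mmu-miR-3069-5p (r = 0.958, 6.27 to 10.35 RPM), mmu-miR-376b* (r = 0.939, 456.5 to 635 RPM) and mmu-miR-384-3p (r = 0.939, 244.7 to 412.8 RPM). All 6 had their highest value in library 1 and their lowest in library 5, as miR-7a and miR-7b did, although their own range was narrower than that of miR-7a. Both arms of miR-384 were thus among these neighbours.

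For miR-375 the closest were mmu-miR-323-3p (r = 0.839), mmu-miR-93* (r = 0.839) and mmu-miR-204* (r = 0.805), and none of the 463 candidates passed 0.9, against 8 for miR-7a and 10 for miR-7b.

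Other miRNAs linked to these products or to the cells that make them were counted from lists. miR-671-5p and miR-671-3p, the first of which directs cleavage of Cdr1as, were at 85.37 to 114.9 RPM in sum, a 1.35-fold range, and neither passed limma in any of the 6 comparisons. The 5 members of the miR-200 family, found in epithelia, pituitary and olfactory tissue, summed to 111.6 to 356.3 RPM, a 3.19-fold range, and their 2 most abundant members, miR-200a and miR-200b, spanned 68.04 to 224.6 RPM and 36.04 to 110.9 RPM. The pituitary markers miR-141 and miR-200c were at 0.24 to 7.42 RPM and 0.45 to 11.25 RPM. The highest libraries for this family were 6 and 4, and miR-375 was among its lower values in library 6, at 61.36 RPM, and high in library 4, at 74.11 RPM.

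The 6 other endocrine and islet miRNAs, which include miR-204 and miR-211 of the choroid plexus, summed to 448.3 to 1254 RPM. Of the 5 of these that were tested, 0 passed in any comparison. In trained against non-trained control mice the median log2 fold change of these 5 was 1.11, beside -0.09 over all 476 miRNAs, and in NIPP1* mice it was -1.08, beside -0.03. The members ran from -0.27 to 1.57 and from -2.11 to -0.09, and 3 of the 5 tested, miR-183, miR-96 and miR-182, come from a single cluster, which was higher in libraries 2, 4 and 6 (79.61 to 117.9 RPM of miR-183) than in the other libraries (11.02 to 24.88 RPM). miR-375 was at 0.17 and -0.21 in the same comparisons.

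Markers of other cells were measured to show what the dissections held. The 6 neuronal miRNAs, led by miR-9 and miR-128, made up 196284 to 227517 RPM, a 1.16-fold range, so the defining miRNAs of neurons were present in every library. The 6 choroid plexus miRNAs ranged 4.88-fold, from 557.5 RPM in library 5 to 2719 RPM in library 3, and the 2 measured of 3 red blood cell miRNAs ranged 4.05-fold, from 61.9 RPM in library 4 to 250.9 RPM in library 7.

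The 3 oligodendrocyte miRNAs were highest in library 1, at 5416 RPM, and between 3222 and 3670 RPM in the trained control libraries, the libraries in which miR-7a was highest and in which its group mean was lowest, respectively. In trained against non-trained control mice their median log2 fold change was -0.68, beside -0.61 for miR-7a and -0.56 for miR-7b. Of the 3, 0 passed limma and 2 had an unadjusted p under 0.05, beside 5.88% of all 476 miRNAs. The oligodendrocyte median was 0.50 in trained NIPP1* against trained control mice, beside 0.32 for miR-7a. It was 0.82 for the difference of the training effect, beside 0.85 for miR-7a. Again 2 of 3 had an unadjusted limma p under 0.05 in each, beside 7.14% and 7.77% of all miRNAs. These medians are by the labels alone, and exchanging the trained groups turns the sign of those between the trained groups, as it does for miR-7a. Some other lists had medians of the same sign. In trained against non-trained control mice the choroid plexus list was at -0.71 and the red blood cell list at -0.57. In trained NIPP1* against trained control mice they were at 0.37 and 1.28, and for the difference of the training effect at 0.21 and 2.09. Of the red blood cell miRNAs, 0 of 2, 2 of 2 and 1 of 2 had an unadjusted limma p under 0.05 in these comparisons. In the same order, the neuron list was at -0.22, 0.131 and 0.305. The leukocyte and microglia list (0.156, -0.072 and -0.434) and the miR-671 list (0.146, -0.176 and -0.171) had the other sign in each. The remaining lists were mixed. The red blood cell miRNAs were at 132.1 and 250.9 RPM in the trained NIPP1* libraries, above the 61.9 to 125.5 RPM of the trained control libraries, as miR-7a-1* was. In the non-trained pair they were at 84.98 RPM in the NIPP1* and 115.9 RPM in the control library, whereas miR-7a-1* was the higher in the NIPP1* library. The part of these lists in the results for miR-7a, miR-7b and miR-7a-1* was not tested. In pooled tissue, fewer cells of a type and less RNA per cell cannot be told apart.

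Vascular miRNAs (4 measured) ranged 1.25-fold and leukocyte and microglial miRNAs (5 measured) 1.16-fold. The hindbrain miRNAs miR-10a and miR-10b, the 2 measured of 4, summed to 26.58 to 47.96 RPM. Grouped by the labels, no member of the 10 lists passed limma in the 6 comparisons. Grouped as in the deposited tables, the oligodendrocyte miRNA miR-219-5p was lower in NIPP1* than in control libraries over both training states, by -1.05 with a limma adjusted p of 0.0445.

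**Figure D5:**
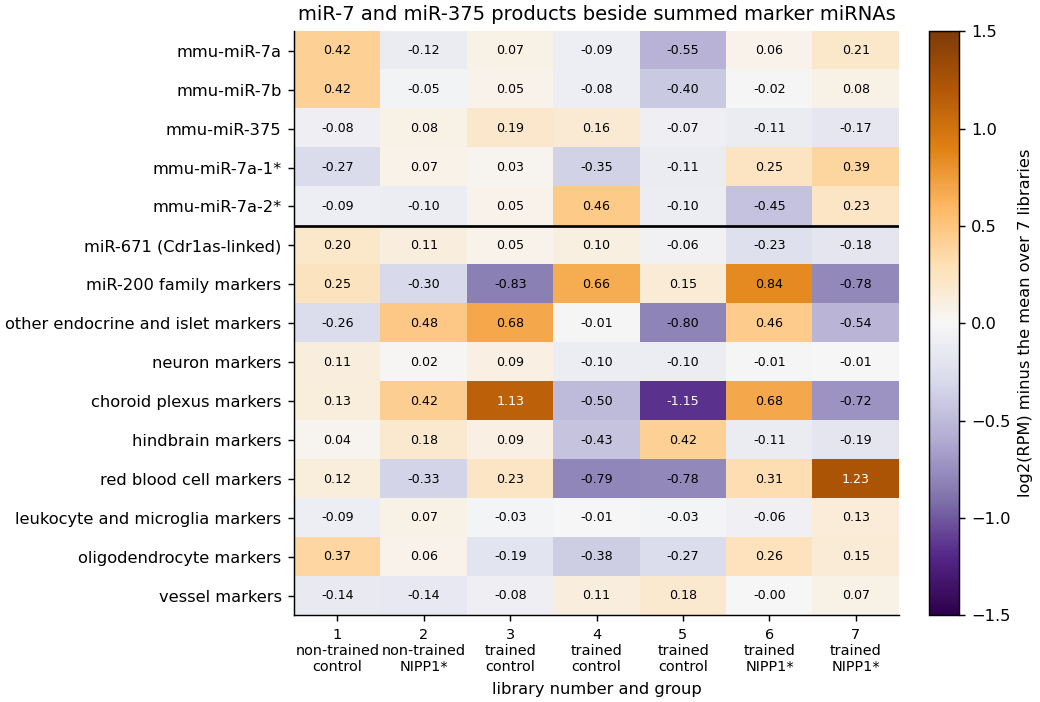
Log2 level of each product (above the line) and of the summed marker miRNAs of each list (below) minus its mean over the 7 libraries, with libraries and groups on the x axis and the value written in each cell. miR-375 deviates by -0.17 to 0.19 and the neuronal sum by -0.10 to 0.11, miR-7a by -0.55 to 0.42, and the choroid plexus sum by -1.15 to 1.13.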

How the data were processed

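Small RNA of pooled hippocampal tissue was sequenced by the authors from TruSeq libraries. Per the methods, adaptors were trimmed and reads were mapped with bowtie through ncPRO-seq to NCBI37/mm9, and the submitters' processing notes also name CASAVA 1.7.0 and bedtools. The number of mismatches allowed is not given in the sources used here. The authors deposited, per library and mature miRNA locus, a percent of the miRNA reads. They also deposited 4 comparison tables whose signal columns are means of size-factor-normalized reads over a group. The authors' fold changes, p-values and variances in these tables were not used, nor were 2 columns of per-library values.

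Percentages were turned into RPM, and loci of identical sequence were averaged (806 loci, 756 sequences). Names were joined to sequences through the group means of the tables (642 of 757), with the trained groups exchanged and only close matches kept. Of 549 joined names with a RefSeq sequence, 518 had the same name apart from arm and copy number. The value of 1 read was found from the lowest values, and 100% of the values up to 100 reads then were whole reads (within 0.1 read).

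limma 3.58.1 (R 4.3.3) with a trend was fitted to log2(RPM + 0.5) of 476 miRNAs with at least 10 reads on average, over all 7 libraries, with an adjusted p under 0.05 as a call. Non-trained groups, with 1 library each, were assumed to vary as the trained ones do. The study names Wilcoxon tests, which cannot pass a threshold at these group sizes. Intervals for 1 library against 1 were exact conditional binomial, and ratios used exact permutation tests (scipy 1.17.1). Alternatives used TMM scaling, edgeR 4.0.16, DESeq2 1.42.0, other minimums and pseudocounts, left-out libraries and the groups of the deposited tables. The limma test was tried on simulated data first.

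Named are the products, miR-7b*, the 3 miRNAs closest to each of miR-7a, miR-7b and miR-375 by Pearson's r, list members, and few miRNAs called by an alternative or past a log2 ratio of 1, which were named after their values were seen. Although the rule for the products uses names alone, the products and lists were chosen with earlier results of these data known.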

Additional observations from a re-analysis of the deposited data

Results flagged for a closer look

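miR-7a, miR-7b and miR-375 were looked at again because every trained control library lay on one side of the non-trained control library while both trained NIPP1* libraries lay on the other side of the non-trained NIPP1* library. The difference of the training effect, NIPP1* minus control, was 0.85 for miR-7a, 0.64 for miR-7b and -0.39 for miR-375 on the log2 scale. None passed the limma test of the difference, with adjusted p of 0.579, 0.67 and 0.801. Of all 476 miRNAs, 104 showed such opposite movement by the labels, and 43 did so with the groups of the deposited tables, where miR-7a, miR-7b and miR-375 did not and miR-7a-1* did. No group held 4 or more libraries, so single libraries were not tested as outliers.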

How the results depend on the processing

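No paired analysis was possible because the labels carry no replicate numbers. No product passed adjustment under any alternative, with adjusted p from 0.0817 (miR-7b, trained against non-trained control mice) upward. Calls over all miRNAs stayed at 0 except with DESeq2, which called 1 in trained against non-trained control mice, 2 in trained against non-trained NIPP1* mice, 1 in trained NIPP1* against trained control mice and 2 for the difference of the training effect, and with the groups of the deposited tables, which gave 3 in NIPP1* against control over both states. Between the non-trained libraries, 20 miRNAs passed a log2 ratio of 0.5 and 67 did at a minimum of 10 reads. The minimum of 10 reads adds miRNAs with few reads.

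With the groups of the deposited tables, other signs were found in 19 of 30 fold changes of the products and 3 of 4 ratios. In trained against non-trained control mice these were miR-375 (-0.059) and miR-7a-2* (-0.021). In NIPP1* mice they were miR-7a (-0.073), miR-7b (-0.097), miR-375 (0.016), miR-7a-1* (-0.20) and miR-7a-2* (0.23). In trained NIPP1* against trained control they were miR-7a (-0.32), miR-7b (-0.17), miR-375 (0.23), miR-7a-1* (-0.45) and miR-7a-2* (0.23). For the difference of the training effect they were miR-375 (0.075), miR-7a-1* (-0.78) and miR-7a-2* (0.25). In NIPP1* against control over both states they were miR-7a (-0.38), miR-375 (0.21), miR-7a-1* (-0.22) and miR-7a-2* (0.16), and among ratios miR-7a to miR-7b (-0.12), miR-375 to miR-7a (0.61) and miR-7a-2* to miR-7a (0.58). This follows from exchanging the trained groups.

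Another scaling or tool turned miR-7a-2* in NIPP1* mice (-0.003 as reported) to 0.023 with TMM, 0.069 with edgeR and 0.082 with DESeq2, and miR-375 in trained against non-trained over both genotypes (-0.01 as reported) to 0.033, 0.043 and 0.054. Leaving out 1 trained library at a time gave miR-7a-2* from -0.32 to 0.32 in NIPP1* mice, -0.56 to 0.087 in trained NIPP1* against trained control, -0.54 to 0.11 for the difference, -0.002 to 0.26 in trained against non-trained and -0.34 to 0.045 in NIPP1* against control. It gave miR-375 from -0.046 to 0.029 in trained against non-trained, and in NIPP1* against control miR-7a from -0.085 to 0.12 and miR-7b from -0.13 to 0.025. In trained NIPP1* against trained control, miR-7a ran from 0.14 to 0.45 and miR-7b from 0.04 to 0.27, both lowest without trained control library 5. For miR-7a in trained against non-trained control mice the range was -0.74 to -0.43, and for miR-7a-1* in NIPP1* against control 0.34 to 0.47. The cause of these changes was not tested. Of the products, miR-7a-2* had the fewest reads of those tested, 554 over the 7 libraries.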
